A study of Mus musculus with 12 samples.

Results

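Genes of the cytosolic ribosome were followed in mouse C26 tumours after treatment with doxorubicin. The gene set was chosen by symbol alone. It held every symbol that starts with Rpl or Rps and a number, together with Rplp0, Rplp1, Rplp2 and Rpsa, and left out the S6 kinases. On the array, 49 of the 12393 genes measured by a probe set of their own met this rule. Of these, 42 encode core proteins of the ribosome, with 20 of the large subunit, 20 of the small subunit (Rpsa included) and 2 of the stalk (Rplp0 and Rplp2). The other 7 symbols are paralogs or related genes, namely Rpl22l1, Rpl39l, Rpl3l, Rpl7l1, Rps27l, Rps4l and the pseudogene Rps15a-ps6. A further 27 core genes, such as Rpl3, Rpl5, Rplp1 and Rps16, were named by probe sets that list several symbols, and they are described only as a group. Another 9 symbols in the fixed list of 78 core symbols had no probe set.

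C26 is a mouse colon carcinoma line, and all 12 tumours grew under the skin of Balb/c mice labelled as 6 weeks old. Treatment was given on day 8 after inoculation, at a tumour size of about 50 mm3, and the tumours were collected after 48 h. The PBS group of 4 mice received phosphate-buffered saline. The Dox group of 4 mice received free doxorubicin, a drug that intercalates into DNA and poisons topoisomerase II. The CP-Dox group of 4 mice received doxorubicin attached to a chimeric polypeptide carrier. No group received the carrier alone, and no dose is stated in the sources used here. Each tumour was hybridized to 1 expression array. Signals were summarized with RMA and are given on a log2 scale, in which a difference of 1 is a doubling.

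Each ribosome carries 1 copy of most of these proteins, and cells make them in matched amounts. Their messages begin with a run of pyrimidines, the terminal oligopyrimidine tract, through which translation of the whole family follows mTOR activity. Proliferating tumour cells produce these messages in very large amounts. When ribosome assembly is disturbed, some of the unassembled proteins bind Mdm2, the ubiquitin ligase that keeps p53 low. Doxorubicin is a known inducer of p53, and it also interferes with ribosomal RNA synthesis.

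The tumours were heterogeneous within the treatment groups, and part of this variation differed between the groups. The array of CP-Dox replicate 2 correlated less well with its group (mean 0.948) than the other CP-Dox arrays (0.971 to 0.977) or any PBS or Dox array (0.981 to 0.99). The mean of 14 keratinocyte markers lay 2.56 and 3.84 log2 units above the PBS mean in CP-Dox replicates 1 and 3 and within 0.16 of it in the other arrays. Skeletal muscle markers were highest in replicates 3 and 4 of both PBS and CP-Dox and in Dox replicate 2. Their mean was intermediate in CP-Dox replicates 1 and 2, at -0.895 and 0.202 log2 units relative to the PBS mean. In the remaining PBS and Dox tumours it lay between -2.53 and -2.41. Muscle and keratinocyte signal thus differed partly with treatment. The epithelial keratins Krt8 and Krt18 gave signals of 9.17 to 12.05 and 5.74 to 10.33, whereas the intestinal markers Cdx1, Cdx2 and Vil1 stayed between 4.01 and 5.44 in every tumour. Other keratins of colon epithelium were also low, with Krt19 at 4.61 to 5.05 and Krt20 at 4.49 to 6.56. The colon label is thus not matched by high signals of these intestinal genes. In such bulk tissue, fewer cells of a type and less RNA per cell cannot be told apart.

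The first question was how these messages differed between tumours given the carrier-bound drug and tumours given saline. The ribosomal messages differed little between the groups. Of the 49 genes, 1 rose (Rps4l) and 0 fell in CP-Dox against PBS at an adjusted p under 0.05 in limma, while 2.35% of all genes on the array rose and 3.23% fell. At an unadjusted p under 0.05 stood 7 of the 49 genes, against 23.5% of all genes. The median log2 fold change was -0.05 over the 49 genes and -0.04 over all genes tested. The differences ran from -0.52 for Rpl14 to 0.77 for Rps4l.

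Small differences below 0 were frequent among these genes. The log2 fold change lay below 0 for 38 of the 49 genes (77.6%), against 55.9% of all genes. Signals of all 4 CP-Dox tumours lay below those of all 4 PBS tumours for 7 genes, namely Rpl22, Rpl27, Rpl39l, Rpl41, Rps10, Rps18 and Rps26, and above them for 1, Rps4l. Over all genes such a separation was found for 7.75% in the lower and 4.31% in the higher direction. Ribosomal genes vary together between arrays, so these counts are not counts of independent events.

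**Figure D1:**
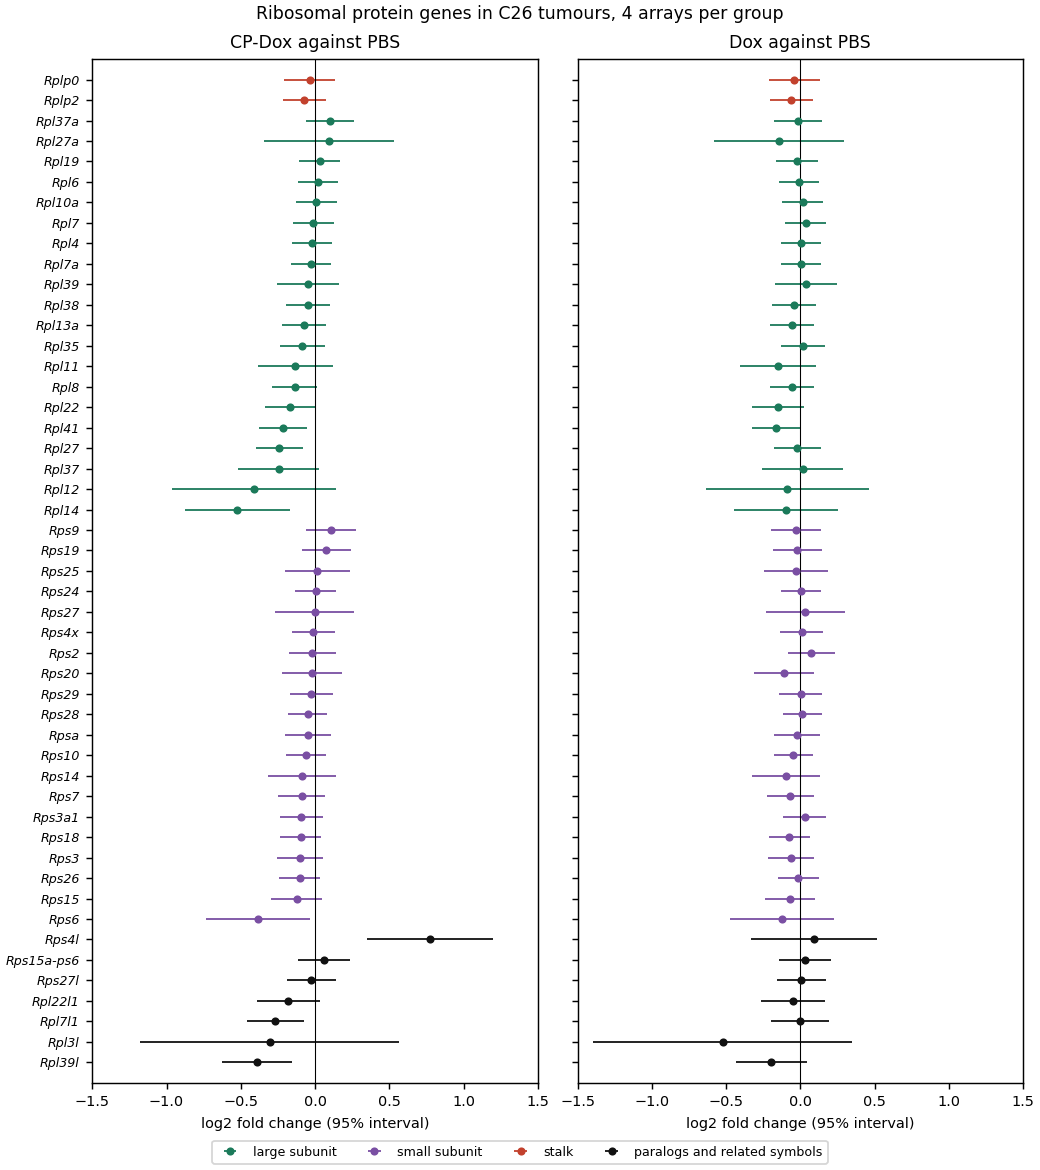
Log2 fold change of the 49 ribosomal protein genes with the 95% interval of the limma fit (x axis), for CP-Dox against PBS on the left and Dox against PBS on the right, with 4 arrays per group and both comparisons using the same PBS arrays. Colours separate large subunit, small subunit, stalk, and paralogs or related symbols. Most points lie within 0.25 of 0, and Rps4l (0.77) stands apart on the left.

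The precision of these arrays set a bound on most of the differences. The 95% interval of the fold change between CP-Dox and PBS lay wholly within 1.3-fold in either direction for 37 of the 49 genes (75.5%), against 31.3% of all genes, and within 1.5-fold for 43 genes. The core genes had a median within-group SD of 0.07 on the log2 scale, against 0.18 over all genes. Their signals were also near the upper end of the scale. The mean signal was 13 or more for 32 of the 49 probe sets, in a table whose highest value was 14.69. Of those 32 genes, 30 (93.8%) had an interval within 1.3-fold, against 42 of the 72 other genes with signals as high (58.3%). Whether signals this high compress differences was not tested.

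**Figure D2:**
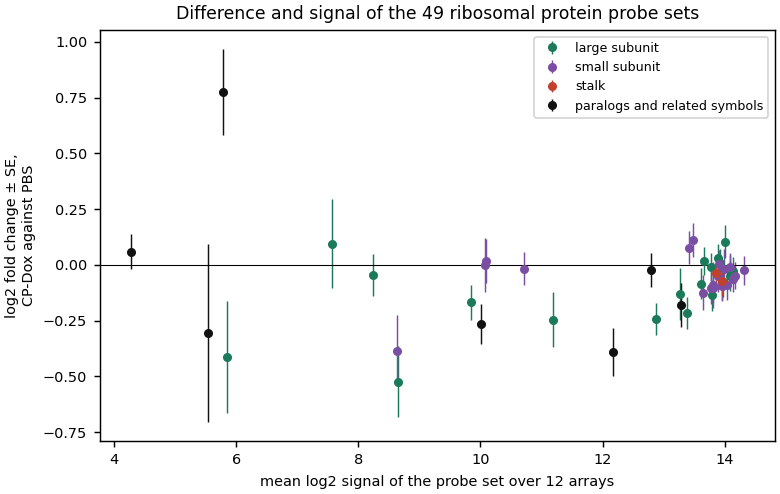
Log2 fold change of CP-Dox against PBS with its standard error (y axis) against the mean log2 signal of each probe set over the 12 arrays (x axis) for the 49 ribosomal protein genes, coloured by class. Genes with a mean signal of 13 or more lie close to 0, and the differences of -0.52 for Rpl14 and 0.77 for Rps4l belong to probe sets of lower signal.

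The stalk proteins, which recruit elongation factors to the ribosome, had narrow intervals around 0. The log2 fold change of CP-Dox against PBS was -0.04 ± 0.08 (SE, 4 tumours per group) for Rplp0, with a 95% interval of -0.21 to 0.13. For Rplp2 it was -0.07 ± 0.07, with an interval of -0.22 to 0.07. Both intervals lay within 1.3-fold in either direction. Both genes have high signals, for which compression of differences was not tested.

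Among the 20 large-subunit genes the median log2 fold change was -0.06, and 15 lay below 0, against 55.9% of all genes. No gene of this group passed in limma, beside 2.35% of all genes called higher and 3.23% lower. At an unadjusted p under 0.05 stood 3 of the 20 (Rpl14, Rpl27 and Rpl41), against 23.5% of all genes. The highest value of the 20 was that of Rpl37a, 0.10 ± 0.07. Rpl11, which forms a complex with Rpl5 and 5S RNA that binds Mdm2, differed by -0.13 ± 0.12. Rpl12, measured by a dim probe set with a mean signal of 5.84, differed by -0.41 ± 0.25 and had an interval of -0.96 to 0.14.

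Rpl14, of the large subunit, had the lowest value of all 49 genes. Its log2 signal was 8.88, 8.65, 8.86 and 9.0 in PBS replicates 1 to 4. It was 8.85, 8.86, 8.91 and 8.39 in the Dox tumours and 8.31, 8.76, 8.12 and 8.11 in the CP-Dox tumours. Thus 3 of the 4 CP-Dox tumours lay below every PBS tumour, while CP-Dox replicate 2 lay within the PBS range. The difference of -0.52 ± 0.16 between CP-Dox and PBS had an adjusted p of 0.0822 in limma. Without CP-Dox replicate 2 it was -0.67, with an adjusted p of 0.00762, and 9.17% of all genes were then called lower.

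Rpl27, also of the large subunit, was measured with a smaller spread. Its signal was 12.96, 12.90, 12.99 and 13.04 in the PBS tumours, 12.96, 12.87, 13.05 and 12.92 in the Dox tumours and 12.63, 12.75, 12.77 and 12.77 in the CP-Dox tumours. All 4 CP-Dox tumours lay below all 8 others. The difference from PBS was -0.24 ± 0.07 with an interval of -0.40 to -0.08 and an adjusted p of 0.0763 in limma. Other probe sets of Rpl27 gave -0.27 ± 0.08 and -0.08 ± 0.07.

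Rpl41 encodes a very short basic peptide of the large subunit. Its signal was 13.51, 13.44, 13.48 and 13.61 in the PBS tumours and 13.29, 13.36, 13.29 and 13.24 in the CP-Dox tumours, so that the groups did not overlap. The Dox tumours, at 13.37, 13.22, 13.43 and 13.36, also lay below every PBS tumour. The difference between CP-Dox and PBS was -0.22 ± 0.07, with an adjusted p of 0.111 in limma. Of the 3 other Rpl41 probe sets, the dimmest, with a mean signal of 5.34, gave -0.73 with an adjusted p of 0.0375 in a limma fit over all probe sets. The others, with mean signals of 9.87 and 7.91, gave -0.05 ± 0.08 and -0.26 ± 0.13 and did not pass.

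The 20 small-subunit genes had a median log2 fold change of -0.05, and 16 lay below 0, against 55.9% of all genes. For 19 of the 20 the 95% interval stayed within 1.3-fold, against 31.3% of all genes. The exception was Rps6, the protein phosphorylated by the S6 kinases, with a probe set of intermediate signal. Rps9 had the highest value, 0.11 ± 0.08. Rps19, which is needed for maturation of the small subunit and is mutated in Diamond-Blackfan anaemia, differed by 0.08 ± 0.07. Rps14, whose loss is linked to a myelodysplastic syndrome, differed by -0.09 ± 0.11.

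Other named proteins of the small subunit had similarly narrow intervals. The log2 fold change was -0.10 ± 0.07 for Rps3, which lines the entry of the messenger RNA channel. It was -0.05 ± 0.07 for Rpsa, which is also described as a laminin receptor. It was -0.09 ± 0.07 for Rps7, one of the proteins that bind Mdm2.

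The Rps6 signal was 8.81, 8.46, 8.80 and 9.15 in the PBS tumours, 8.78, 8.72, 8.87 and 8.35 in the Dox tumours and 8.37, 8.70, 8.38 and 8.23 in the CP-Dox tumours. Here CP-Dox replicate 2 and Dox replicate 4 lay on the other side of PBS replicate 2 from the rest of their groups. The difference between CP-Dox and PBS was -0.39 ± 0.16, with an interval of -0.73 to -0.04 and an adjusted p of 0.175 in limma. A dim probe set of Rps6, with a mean signal of 5.00, gave 0.03.

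Rpl14 and Rps6 had their lowest signals in the same tumours. For both genes the 4 lowest were those of CP-Dox replicates 1, 3 and 4 and Dox replicate 4. The mean of 11 marker genes of T and natural killer cells was highest in the same 4 tumours. It stood 0.79, 0.91 and 1.35 log2 units above the PBS mean in those CP-Dox tumours and 0.83 above it in Dox replicate 4, and ranged from -1.47 to 0.58 in the other 8. None of these 11 marker genes passed in limma for CP-Dox against PBS, beside 2.35% of all genes called higher and 3.23% lower. Of the 11, 10 lay above 0 and 1 below, beside 55.9% of all genes below 0. At an unadjusted p under 0.05 stood 0 of the 11, beside 23.5% of all genes. The part of those cells in the Rpl14 and Rps6 values was not tested.

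**Figure D3:**
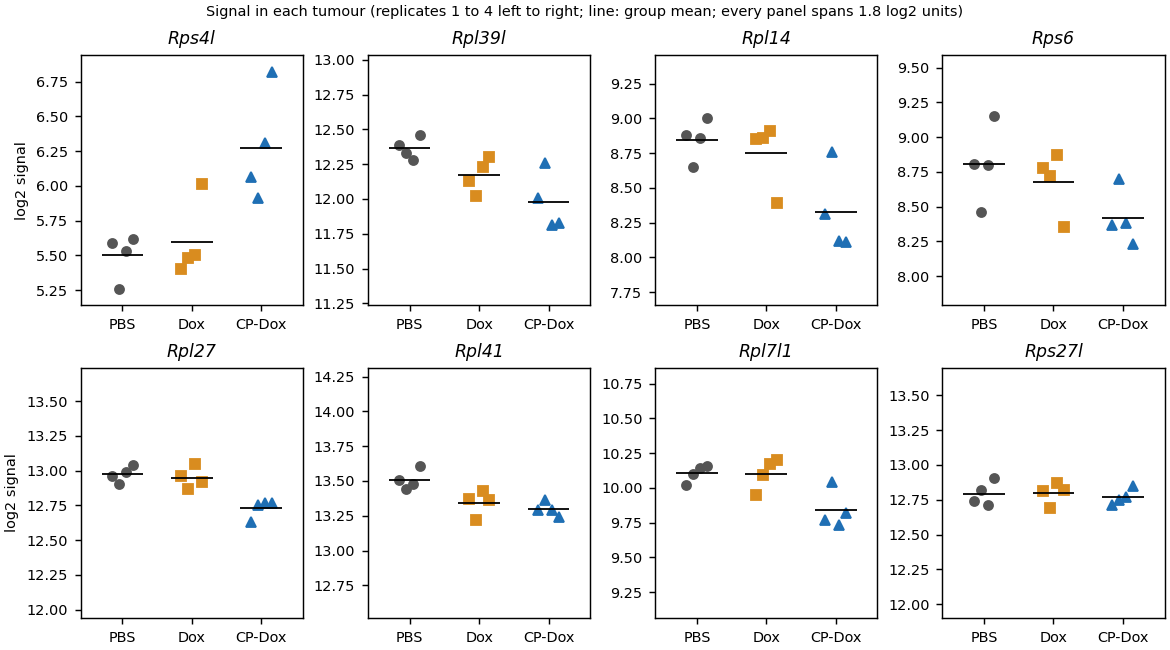
Log2 signal of 8 ribosomal protein genes in each of the 12 tumours, by group, with replicates 1 to 4 from left to right and a line at each group mean; every panel spans the same number of log2 units. Rps4l is higher in the 4 CP-Dox tumours than in the PBS tumours, Rpl27 is lower in them than in all other tumours, and Rps27l shows no separation.

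The paralogs and related symbols spread more widely than the core genes, with a median of -0.18 and a range from -0.39 to 0.77. Rps4l, named for its likeness to the small-subunit gene Rps4x, was the only one of the 49 genes to pass. Its signal was low throughout, at 5.59, 5.26, 5.53 and 5.62 in the PBS tumours, 5.40, 5.48, 5.50 and 6.01 in the Dox tumours and 6.06, 5.91, 6.31 and 6.82 in the CP-Dox tumours. All CP-Dox tumours lay above all PBS tumours, and Dox replicate 4 lay among the CP-Dox values. Rps4l rose 1.71-fold in CP-Dox against PBS, a log2 fold change of 0.77 ± 0.19 with an interval of 0.35 to 1.20 and an adjusted p of 0.0411 in limma. Rps4x itself differed by -0.01 ± 0.06.

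The Rps4l call was close to the threshold. It was lost in 7 of the 8 fits that left out 1 CP-Dox or PBS array, with limma adjusted p values of 0.0654 to 0.112 and log2 fold changes of 0.59 to 0.85. Those 7 fits called 73 to 196 of all genes higher, against 291 with all arrays. The Rps4l call was kept without CP-Dox replicate 2, at 0.90 with an adjusted p of 0.00952 in limma. That fit called 1227 of all genes higher. The Rps4l call was also lost without the 2 arrays with high keratinocyte markers (0.86, limma adjusted p 0.204) and without the 5 arrays with high muscle markers (0.56, limma adjusted p 0.417). These fits called 0 and 8 of all genes higher, in the same order. In the fit without the muscle-rich arrays, the CP-Dox arrays left still had higher muscle markers than the PBS arrays left.

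Mast cell markers moved with Rps4l. Of 11 such genes 10 rose in CP-Dox against PBS in limma, against 2.35% of all genes, and Gata2 did not pass. Their mean stood 1.18 to 1.77 log2 units above the PBS mean in the CP-Dox tumours and 1.10 above it in Dox replicate 4, and ranged from -0.44 to 0.29 in the other 7 tumours. The 5 tumours with the highest Rps4l signal were thus the 5 with the highest mast cell markers. The part of those cells in the Rps4l result was not tested.

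Rpl39l, a paralog of Rpl39 known for its high level in testis, gave the lowest p among genes that lay below 0. Its signal was 12.39, 12.33, 12.28 and 12.46 in the PBS tumours, 12.13, 12.02, 12.23 and 12.30 in the Dox tumours and 12.01, 12.26, 11.81 and 11.83 in the CP-Dox tumours. No CP-Dox tumour reached the lowest PBS tumour, and the Dox tumours lay between or within these ranges. The difference between CP-Dox and PBS was -0.39 ± 0.11, with an interval of -0.63 to -0.15 and an adjusted p of 0.0602 in limma. Rpl39 itself differed by -0.05 ± 0.09.

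Rpl7l1, which is related to Rpl7 and takes part in assembly of the large subunit, had signals of 10.02, 10.10, 10.14 and 10.16 in the PBS tumours. It stood at 9.95, 10.09, 10.17 and 10.20 in the Dox tumours and at 9.77, 10.04, 9.73 and 9.82 in the CP-Dox tumours. CP-Dox replicate 2 lay within the PBS range, and the other 3 CP-Dox tumours lay below all PBS and Dox tumours. The difference between CP-Dox and PBS was -0.27 ± 0.09, with an adjusted p of 0.104 in limma. Its other probe set gave -0.65 ± 0.13, with an adjusted p of 0.0154 in the limma fit over all probe sets. Rpl7 differed by -0.01 ± 0.06.

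Rps27l, a paralog of Rps27, is a known p53 target. Its signal was 12.74, 12.82, 12.71 and 12.91 in the PBS tumours, 12.81, 12.69, 12.87 and 12.82 in the Dox tumours and 12.71, 12.75, 12.77 and 12.85 in the CP-Dox tumours. The 3 groups overlapped throughout. The difference between CP-Dox and PBS was -0.02 ± 0.08, with an interval of -0.19 to 0.14 and an adjusted p of 0.866 in limma, and its other probe sets gave 0.09 and -0.06. In the same comparison the p53 targets Mdm2 and Cdkn1a rose 2.54-fold and 2.83-fold, with standard errors of 0.26 and 0.27 on the log2 scale and limma adjusted p values of 0.0157 and 0.0109. Rps27 differed by 0.00 ± 0.12.

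Rpl22 and Rpl22l1 are paralogs that substitute for each other in the large subunit. The Rpl22 signal was 9.90, 9.88, 9.96 and 10.10 in the PBS tumours and 9.72, 9.85, 9.81 and 9.78 in the CP-Dox tumours, with no overlap. The difference was -0.17 ± 0.08, with an adjusted p of 0.226 in limma, and another probe set of Rpl22 gave 0.08 ± 0.16. Rpl22l1 differed by -0.18 ± 0.10, with an adjusted p of 0.291 in limma, so that both members of the pair lay below 0 and neither passed.

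Rpl3l replaces Rpl3 in ribosomes of skeletal and heart muscle. Its signal was 5.13, 4.90, 7.03 and 6.21 in the PBS tumours, 4.97, 5.81, 5.22 and 5.18 in the Dox tumours and 5.16, 5.42, 5.57 and 5.90 in the CP-Dox tumours. The 5 highest tumours were PBS replicates 3 and 4, CP-Dox replicates 3 and 4 and Dox replicate 2, which were also the 5 with the highest mean of 16 skeletal muscle markers. Relative to the PBS mean, that marker mean was 3.38, 1.60, 1.11, 1.79 and 1.55 log2 units in those 5 tumours, in the same order, and ranged from -2.53 to 0.20 in the other 7. The difference between CP-Dox and PBS was -0.31 ± 0.40 and that between Dox and PBS -0.52 ± 0.40. Without the 5 tumours they were 0.27 and 0.11, with limma adjusted p values of 0.562 and 0.893. The CP-Dox tumours left still had higher muscle markers than the PBS tumours left, at -0.895 and 0.202 against -2.455 and -2.528.

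**Figure D4:**
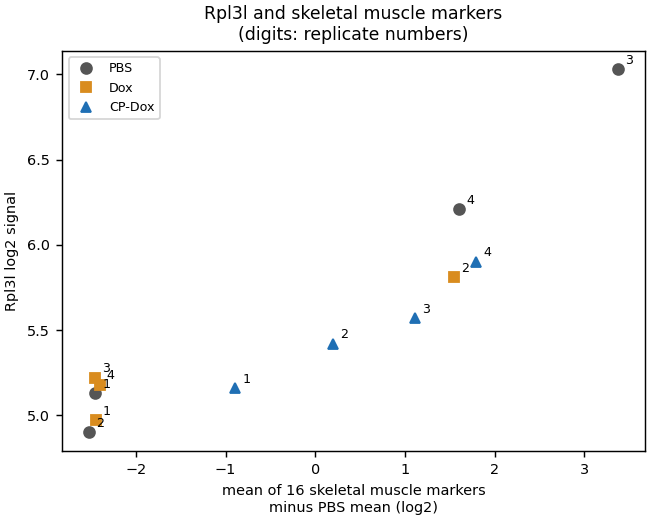
Log2 signal of Rpl3l (y axis) against the mean of 16 skeletal muscle markers minus its PBS mean in log2 units (x axis), 1 point per tumour, labelled with its replicate number and shaped by group. The 5 tumours with the highest muscle markers are those with the highest Rpl3l signal, and they come from all 3 groups.

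Of the ribosomal proteins reported to bind Mdm2, 11 were measured singly, among them Rpl11, Rps3, Rps7 and Rps14. In CP-Dox against PBS 0 of them passed in limma, beside 2.35% of all genes called higher and 3.23% lower, and 0 stood at an unadjusted p under 0.05, beside 23.5%. Of the 11, 10 lay below 0, beside 55.9% of all genes, with a median of -0.09 beside -0.04 for all genes, and the values ran from -0.25 (Rpl37) to 0.02.

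Averaged over the 42 core genes, tumours of the 3 groups overlapped. Relative to the PBS mean, the mean log2 signal was 0.01, -0.08, -0.02 and 0.08 in PBS replicates 1 to 4. It was -0.02, -0.07, 0.03 and -0.09 in the Dox tumours and -0.10, -0.01, -0.09 and -0.12 in the CP-Dox tumours. Of the CP-Dox tumours only replicate 2 lay within the PBS range. CP-Dox replicates 1, 3 and 4 and Dox replicate 4 lay below every PBS tumour. By the median of the 42 genes, CP-Dox replicate 3 stood at -0.051, within the PBS range of -0.072 to 0.064. It was also within that range over the 34 core genes with a mean signal above the 90th percentile of all genes. There its mean was -0.035, and the PBS tumours ran from -0.061 to 0.067. PBS replicate 4 was the highest of the 12 tumours for 20 of the 42 core genes, against 15.8% of all genes, and CP-Dox replicate 4 was the lowest for 10, against 7.46% of all genes. Without PBS replicate 4 the median difference of the 49 genes between CP-Dox and PBS moved from -0.05 to -0.03.

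CP-Dox replicate 2 had the lowest proliferation markers. The mean of 9 such genes lay 1.81 log2 units below the PBS mean there, and 0.39 to 0.52 below it in the other CP-Dox tumours. The core ribosomal mean of the same tumour, at -0.01, was the CP-Dox value closest to PBS. The messages of the ribosome and those of the cell cycle thus did not have the same order among the CP-Dox tumours.

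**Figure D5:**
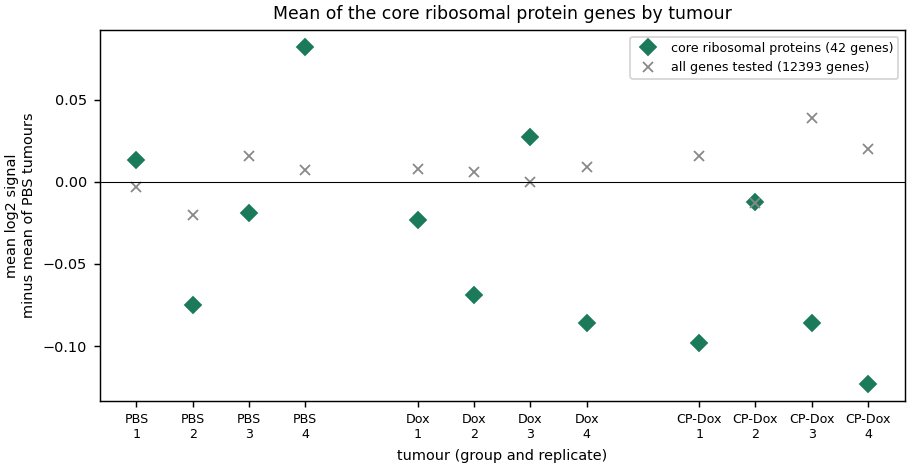
Mean log2 signal of the 42 core ribosomal protein genes (diamonds) and of all 12393 genes (crosses) in each of the 12 tumours, minus the mean of the PBS tumours (y axis, log2 units). The CP-Dox tumours lie between -0.12 and -0.01 and the PBS tumours between -0.08 and 0.08. Of the CP-Dox tumours only replicate 2 lies within the PBS range, and Dox replicate 4 (-0.09) lies below that range.

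Free doxorubicin was compared with the same PBS tumours. Of the 49 genes 0 rose and 0 fell in limma, as was the case for all genes on the array (0% in each direction). At an unadjusted p under 0.05 stood 1 of the 49, Rpl41, against 4.5% of all genes. The median log2 fold change was -0.02, beside 0.00 for all genes, and 32 of the 49 genes lay below 0, against 48.6% of all genes. The 95% interval stayed within 1.3-fold for 41 genes and within 1.5-fold for 47.

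The genes with the lowest p in this comparison were Rpl41, Rpl22, Rpl39l, Rpl3l and Rpl11. Rpl41 differed by -0.17 ± 0.07, with an adjusted p of 0.995 in limma, and was the 1 gene whose Dox tumours all lay below the PBS tumours. No gene lay wholly above, and over all genes such a separation was found for 2.13% in the lower and 1.71% in the higher direction. Rpl22 differed by -0.15 ± 0.08, Rpl39l by -0.20 ± 0.11 and Rpl11 by -0.15 ± 0.12. For Rps4l, which rose under CP-Dox, the difference under Dox was 0.09 ± 0.19, with an interval of -0.33 to 0.52. Rps27l differed by 0.01 ± 0.08. The CP-Dox and Dox comparisons share their PBS arrays, so that like signs in both are not separate evidence.

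CP-Dox was also compared directly with Dox, with the PBS tumours entering only the estimate of the spread. Here 0 of the 49 genes passed in limma, where 0.0565% of all genes were called higher and 0.169% lower. At an unadjusted p under 0.05 stood 4 genes, Rps4l, Rpl27, Rpl7l1 and Rpl14, against 16.1% of all genes. The median log2 fold change was -0.02, beside -0.03 for all genes, and 35 of the 49 genes lay below 0, against 55.7%.

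Rps4l differed between CP-Dox and Dox by 0.68 ± 0.19, with an adjusted p of 0.153 in limma. Rpl14 differed by -0.43 ± 0.16, Rpl27 by -0.22 ± 0.07, Rpl7l1 by -0.26 ± 0.09 and Rpl37, of the large subunit, by -0.26 ± 0.12, with limma adjusted p values of 0.242, 0.198, 0.206 and 0.326. All CP-Dox tumours lay below all Dox tumours for Rpl27, Rpl37, Rps26 and Rps28, and above them for 0 genes, while over all genes the shares were 6.34% and 3.29%. Without CP-Dox replicate 2, Rps4l was called higher, at 0.80, and Rpl14 and Rpl7l1 were called lower, at -0.57 and -0.33, with limma adjusted p values of 0.0302, 0.0294 and 0.0376. In that fit 4.77% of all genes were called higher and 4.51% lower.

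Probe sets that name several genes gave a view of the 27 further core genes, together with pseudogenes and other symbols of the family. There were 102 such probe sets with at least 1 ribosomal symbol, and in a limma fit over all 22626 probe sets 0 were called higher and 1 lower in CP-Dox against PBS. The shares over all probe sets were 2.09% and 3.26%. Their median difference was -0.08, beside -0.06 for the 101 probe sets of the 49 genes and -0.04 for all. Of those 101 probe sets 1 was called higher and 2 lower in the same fit. Of the 23 genes with several probe sets, 11 had every probe set below 0 and 12 had probe sets on both sides of 0. Ribosomal protein genes have many processed copies in the genome, and 13 of the 49 probe sets carry a mark for probes that can bind other transcripts, so that single genes of this family are separated only in part.

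Other messages and regulators of the same translational class were taken from a fixed list of 24 measured genes. In CP-Dox against PBS 0 of them rose and 1 fell, beside 2.35% and 3.23% of all genes, and 5 stood at an unadjusted p under 0.05, beside 23.5% of all genes. The gene that fell was Nap1l1, a histone chaperone, which fell by 0.58 ± 0.09 on the log2 scale with an adjusted p of 0.00702 in limma. Its signal was 12.52 to 12.71 in the PBS tumours, 12.34 to 12.56 in the Dox tumours and 11.89 to 12.25 in the CP-Dox tumours, the last of which lay below all others. The median of the 24 genes was -0.09. Eif4ebp1, which binds the cap-binding factor when mTOR is inactive, differed by -0.45 ± 0.12, with an adjusted p of 0.0504 in limma. The elongation factor subunit Eef1d differed by -0.27 ± 0.07 and Npm1, a nucleolar assembly factor, by -0.22 ± 0.07, with limma adjusted p values of 0.0619 and 0.0808. Mtor itself, the kinase of the pathway, had the highest value of the list, 0.44 ± 0.27 with an adjusted p of 0.341 in limma.

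The elongation factor Eef1a1 and the translationally controlled protein Tpt1 differed by 0.02 ± 0.06 and -0.01 ± 0.06. Fau, whose product is processed to a small-subunit protein without an Rps symbol, differed by 0.13 ± 0.07, with an adjusted p of 0.297 in limma. In Dox against PBS 0 of the 24 passed in limma, beside 0% of all genes in each direction. At an unadjusted p under 0.05 stood 0 of them, beside 4.5% of all genes. The median of the 24 was -0.02, beside 0.00 for all genes.

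The start sites of these genes are shown because the pyrimidine run is the feature through which translation of the family is regulated. RefSeq start sites of the mouse build GRCm38.p6 were found for 42 of the 49 genes, 50 sites in all. Each sequence gives the 20 bases before and 20 bases after a start, 5′ to 3′ on the coding strand. Capitals mark every run that begins with C, goes on for at least 4 bases that are each C or T, and has its first base within 10 bases of the start. This search was set after the sequences had been seen. The first 4 sequences are examples of each class that hold such a run.
Rpl14 (large subunit, chr9:120571497-120571536, plus strand): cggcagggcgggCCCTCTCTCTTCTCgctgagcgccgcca
Rps6 (small subunit, chr4:86857348-86857387, minus strand): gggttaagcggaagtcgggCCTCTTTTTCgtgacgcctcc
Rplp2 (stalk, chr7:141447631-141447670, plus strand): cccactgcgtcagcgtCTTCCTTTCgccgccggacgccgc
Rps27 (small subunit, chr3:90213629-90213668, minus strand): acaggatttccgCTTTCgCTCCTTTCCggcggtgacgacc

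Some paralogs held such runs too. They are shown for Rps27l, for Rpl22l1 beside Rpl22 and for Rpl39l beside Rpl39, at start site 1 of each gene. Start site 2 of Rps27l and of Rpl22 had no such run.
Rps27l (paralog of Rps27, chr9:66946066-66946105, plus strand): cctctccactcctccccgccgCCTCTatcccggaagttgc
Rpl22 (large subunit, chr4:152324416-152324455, plus strand): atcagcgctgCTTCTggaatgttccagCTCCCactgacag
Rpl22l1 (paralog of Rpl22, chr3:28805488-28805527, plus strand): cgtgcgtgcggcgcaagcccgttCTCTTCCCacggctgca
Rpl39l (paralog of Rpl39, chr16:10170208-10170247, plus strand): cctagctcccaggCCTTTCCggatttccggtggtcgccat
Rpl39 (large subunit, chrX:37085203-37085242, minus strand): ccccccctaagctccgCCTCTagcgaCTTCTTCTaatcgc

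Rpl14, Rps6 and Rpl39l, which hold a run, stood at an unadjusted p under 0.05 in CP-Dox against PBS. So did Rpl27 and Rpl41, which had no match at the annotated start. The lack of a match says only that these letters are not within that window.
Rpl27 (large subunit, chr11:101442225-101442264, plus strand): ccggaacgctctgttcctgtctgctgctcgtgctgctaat
Rpl41 (large subunit, chr10:128549149-128549188, minus strand): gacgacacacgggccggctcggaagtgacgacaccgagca

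A run on the coding strand was found at 26 of the 50 start sites (52.0%), against 27.9% of all 32851 promoters in the table. On the opposite strand the shares were 22.0% and 32.1%. The runs marked above were 14 bases long for Rpl14, 10 for Rps6, 9 for Rplp2, and 5 and 9 for the runs of Rps27. A match is a description of the sequence at an annotated start and does not show that the message begins there.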

How the data were processed

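RNA from 12 tumours, 4 per group, was measured on Affymetrix mouse expression arrays. The deposited values are log2 signals that the authors made with RMA, and Partek is also named, per the submitters' processing notes. Neither their versions nor the order of steps is given in the sources used here. Groups came from the sample titles, which name separate mice. No further normalization was applied.

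Of 22690 probe sets, 64 controls, 691 with several symbols and 1555 with none were left out. The 20380 others stood for 12393 genes, each kept as the probe set with the highest mean. The 3 comparisons were contrasts of 1 model over all 12 arrays in limma 3.58.1 (lmFit, eBayes; R 4.3.3), with two-sided p values adjusted by Benjamini and Hochberg over 12393 genes. "Rose" and "fell" mean an adjusted p under 0.05, and ± is the standard error. The fit was tested on simulated data. The number of arrays limits the precision. Figures used matplotlib 3.10.9.

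The ribosomal genes and all lists were chosen with earlier results of these data known. Named genes are those past the threshold, in a comparison with none the 5 of lowest p, a set list of ribosomal genes, up to 4 per other list, and Mdm2 and Cdkn1a. Rpl7l1, Rpl12 and others at the ends of a range were chosen after their values were seen.

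Alternatives were another quantile normalization, median centring, removal of the dimmest 40% of genes, all or only unmarked probe sets per gene, array weights, an intensity trend with a robust prior, only the groups compared, the replicate number as a block, and each array left out. Fits without marker-rich arrays and over all probe sets were chosen after seeing the data.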

Additional observations from a re-analysis of the deposited data

Results flagged for a closer look

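Single tumours stood far from the other 3 of their group for 2 of the 66 gene and group combinations examined, where chance marks about 1 in 20. Both were Dox replicate 4. Its Rps4l log2 signal was 6.01, with 5.40 to 5.50 in the other Dox tumours, and its Rpl14 log2 signal was 8.39, with 8.85 to 8.91 in the others. The gap to the nearest tumour was 0.836 and 0.892 of the group's range.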

How the results depend on the processing

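For CP-Dox against PBS, the count of ribosomal genes called lower, 0 as reported, was 1 with quantile normalization, with the mean of all probe sets, without the dimmest 40% of genes (45 tested) and with probe sets free of an x, s or a mark (25 tested), 2 with an intensity trend and robust prior, and 6 with array weights. The latter called 1359 of all 12393 genes lower, against 400. The count called higher, 1 as reported, was 0 with median centring, without the dimmest 40% of genes (which removed Rps4l), with only the 2 groups compared, and without the arrays high in keratinocyte or muscle markers. Without the latter arrays, 0 (keratinocyte) and 8 (muscle) of all genes were called higher, against 291. With array weights, CP-Dox against Dox gave 1 higher and 4 lower, and 864 and 1096 of all genes. With median centring the median differences were -0.10 for CP-Dox against PBS and -0.080 for CP-Dox against Dox, and -0.074 for the latter with probe sets free of a mark. The cause was not tested. Leaving out each array in turn gave 0 to 1 called higher, 0 to 3 called lower and medians of -0.08 to -0.03 for CP-Dox against PBS. It gave 0 called and medians of -0.05 to 0.00 for Dox against PBS, and 0 to 1 higher, 0 to 2 lower and medians of -0.04 to -0.01 for CP-Dox against Dox. The counts of 3 and 2 lower came without CP-Dox replicate 2. Without the muscle-rich arrays the Dox median was 0.01, above 0. With the replicate block, CP-Dox against PBS gave 1 higher and 0 lower with a median of -0.05, and no call on a ribosomal gene changed; over all genes it called 446 higher and 549 lower, against 291 and 400. Correlations of deviations between same-numbered tumours ran from -0.311 to 0.505, with 8 of 12 over 0.1. As not all passed 0.1 and no label ties the numbers to a shared batch, the tumours were not treated as pairs. Of 63 values of named genes, 12 crossed the threshold under some alternative. Another 31 changed sign under some alternative, none of them past the threshold in that fit (lowest limma adjusted p 0.562), among them Rpl3l without PBS replicate 3 or without the muscle-rich arrays.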
